A study of Mus musculus with 10 samples.

Results

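The 36 genes described here are immediate early genes, together with a few genes for heat shock chaperones, and they were chosen by name as genes known to be induced by cell activity, by tissue dissociation or by heat. All 36 were found among the 19213 entries of a table of RPKM, the reads of a gene scaled to its length and to the size of the library, which came from RNA sequencing of sorted islet cells of adult mice. The mice were triple transgenic offspring of a pair of crosses. Delta cells, which secrete somatostatin, were sorted by a floxed YFP allele switched on by Sst-Cre and gave 2 libraries, replicate 1 from males and replicate 2 from females. Alpha cells, which secrete glucagon, were sorted by the same YFP allele switched on by Gcg-cre and gave 3 libraries, replicates 1 and 2 from males and replicate 3 from females. Beta cells, which secrete insulin, were sorted by the mIns1-H2b-mCherry transgene, which every animal carried, and gave 5 libraries, replicates 1 and 3 from males and replicates 2, 4 and 5 from females. Material of 10 to 12 animals of the same sex was pooled, kept overnight in medium with 5.5 mM glucose and 10% serum, and dissociated the next morning with 0.25% trypsin before sorting, so every library passed through culture, dissociation and sorting. No library of unsorted or undissociated islets was analysed here. Beta cells were taken from islets that also gave delta or alpha cells, but which libraries belong together is not in the labels, and neither is whether every library is its own pool. Alpha replicates 1 and 2 share the number 9 in their sample titles, and beta replicates 4 and 5 the number 12. Only a letter b sets the titles apart, so these libraries may not be independent, although each counts as a replicate in the tests. The p-values therefore weigh differences against the spread of these libraries, part of which may be technical.

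Immediate early genes are transcribed within minutes of a stimulus without new protein synthesis, because the factors that switch them on, such as CREB and the serum response factor, are already in the nucleus and are activated by calcium and MAP kinase signals. Many of them encode transcription factors, others encode phosphatases and RNA decay factors that end the response, and their RNAs are short-lived. Heat shock genes are switched on by the heat shock factor when proteins unfold, and their products are chaperones that refold them. In islets, secretory stimuli that raise calcium or cAMP induce immediate early genes, and enzymatic dissociation of a tissue into single cells is itself known to induce both groups.

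Library totals recovered from the values were 16688097 to 26684086 reads. The hormone genes separated the sorts, but not fully. Gcg, the glucagon gene, stood at 21250 and 23230 RPKM in delta libraries and at 244200 to 272200 RPKM in alpha libraries. Xist was at 24.5 to 230.3 RPKM in the female libraries and at 0.134 to 0.525 RPKM in the male ones, so no library went against its sex label. Of 12 macrophage and other immune cell markers, the summed level was 77.6 to 90.7 RPKM in delta, 26.0 to 46.4 RPKM in alpha and 123 to 234 RPKM in beta libraries. In delta libraries C1qa alone gave 57.7 and 73.5 RPKM of this sum. Ptprc, which marks leukocytes, was at 0.00873 and 0 RPKM in delta, at most 0.0101 RPKM in alpha and 0.202 to 0.484 RPKM in beta libraries. The 12 endothelial markers summed to 12.0 to 16.0 RPKM in delta, 8.28 to 12.1 in alpha and 6.90 to 13.8 in beta libraries, and 10 mesenchymal markers to 1.10 to 1.36, 3.64 to 4.45 and 0.343 to 1.71 RPKM in the same order of cell types. Of the 12 endothelial markers, 10 lay under 1 RPKM in every delta library, 9 in every alpha library and 8 in every beta library. The others in delta libraries were Esam, at 7.10 and 8.02 RPKM, and Egfl7, at 3.68 and 4.97 RPKM. Esam stood at 5.91 to 6.45 RPKM in alpha and 2.925 to 4.57 RPKM in beta libraries. Ductal markers, 8 in number, summed to 345 to 415 RPKM in delta, 843 to 1952 in alpha and 548 to 715 in beta libraries, and 11 acinar markers to 860.2 to 1050, 96.4 to 3349 and 216 to 10630 RPKM. Of the ductal sum, Spp1 alone gave 691 to 1797 RPKM in alpha libraries, and Krt7 gave 320 to 460 RPKM in beta libraries. The part of these other cells in the results was not tested, and in bulk libraries fewer cells with a transcript and less of it per cell cannot be told apart.

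Delta cells carried more RNA of most of the immediate early genes than beta cells. Of the 36 genes, 34 reached 1 RPKM in 2 or more libraries and were tested with limma on log2(RPKM + 1). Of these, 18 rose and 4 fell in delta cells relative to beta cells at an adjusted p under 0.05 (called, below), that is 22 of 34, where 50.7% of all 12700 tested genes were called. Separated by direction, 37.4% of all tested genes were called higher in delta cells and 13.3% were called lower. A rise of at least 2 on the log2 scale was called for 7 genes, Fos, Jun, Egr1, Egr2, Nr4a1, Ier2 and Arc, and for 3% of all tested genes. The groups did not overlap for 24 of the 34 genes, and for 62.8% of all tested genes. The median log2 fold change was 0.70 over the 34 genes and 0.25 over all tested genes. Egr2, Npas4 and Klf2 lay under 1 RPKM in every beta library and entered the test through the other cell types, Klf2 through alpha libraries alone, so a difference was built into their entry. The 18 genes called higher include Egr2 and Npas4, and the 7 large rises include Egr2. With libraries scaled by median ratios, the median of all genes was -0.0048 and the split among these genes became 14 higher and 8 lower, while no called gene changed sign. Without delta replicate 1, 15 genes were called, and without delta replicate 2, 15 as well.

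Alpha cells differed from beta cells in both directions. Relative to beta cells, 12 of the 34 genes rose and 7 fell, where 54% of all tested genes were called, 23.7% higher and 30.3% lower. The 12 include Egr2, Npas4 and Klf2, whose entry built in a difference. Klf4 alone rose by at least 2 on the log2 scale, against 1.71% of all tested genes. The groups did not overlap for 15 of the 34 genes, and for 50% of all tested genes. Over the 34 genes the median log2 fold change was 0.25, and over all tested genes -0.02. Under totals without the hormone reads, the calls among these genes stayed at 12 higher and 7 lower, while the share of calls that were higher over all genes was 55.0%, against 43.9% as reported. Without alpha replicate 3, the only female alpha library, 9 genes were called. This comparison and the one of delta with beta cells use the same beta libraries.

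Delta cells set against alpha cells, with no beta library in the contrast, gave 14 genes that rose and 3 that fell (Klf4, Nr4a2 and Klf2, the last tested through its alpha libraries alone), where 38% of all tested genes were called, 32.1% higher in delta cells and 5.89% lower. Fosb, Nr4a1 and Arc rose by at least 2 on the log2 scale, as 2.56% of all tested genes did. The groups did not overlap for 23 of the 34 genes, and for 71% of all tested genes. Median log2 fold changes were 0.49 over the 34 genes and 0.26 over all genes. With median-ratio scaling the split was 8 higher and 4 lower, and without delta replicate 1, 8 genes were called, 6 of them higher. Under all 19 alternatives, 6 genes were called, Arc, Ier2, Nr4a1, Sik1, Klf4 and Nr4a2, and Npas4 was called under 18 and not tested with a filter of 5 RPKM.

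**Figure D1:**
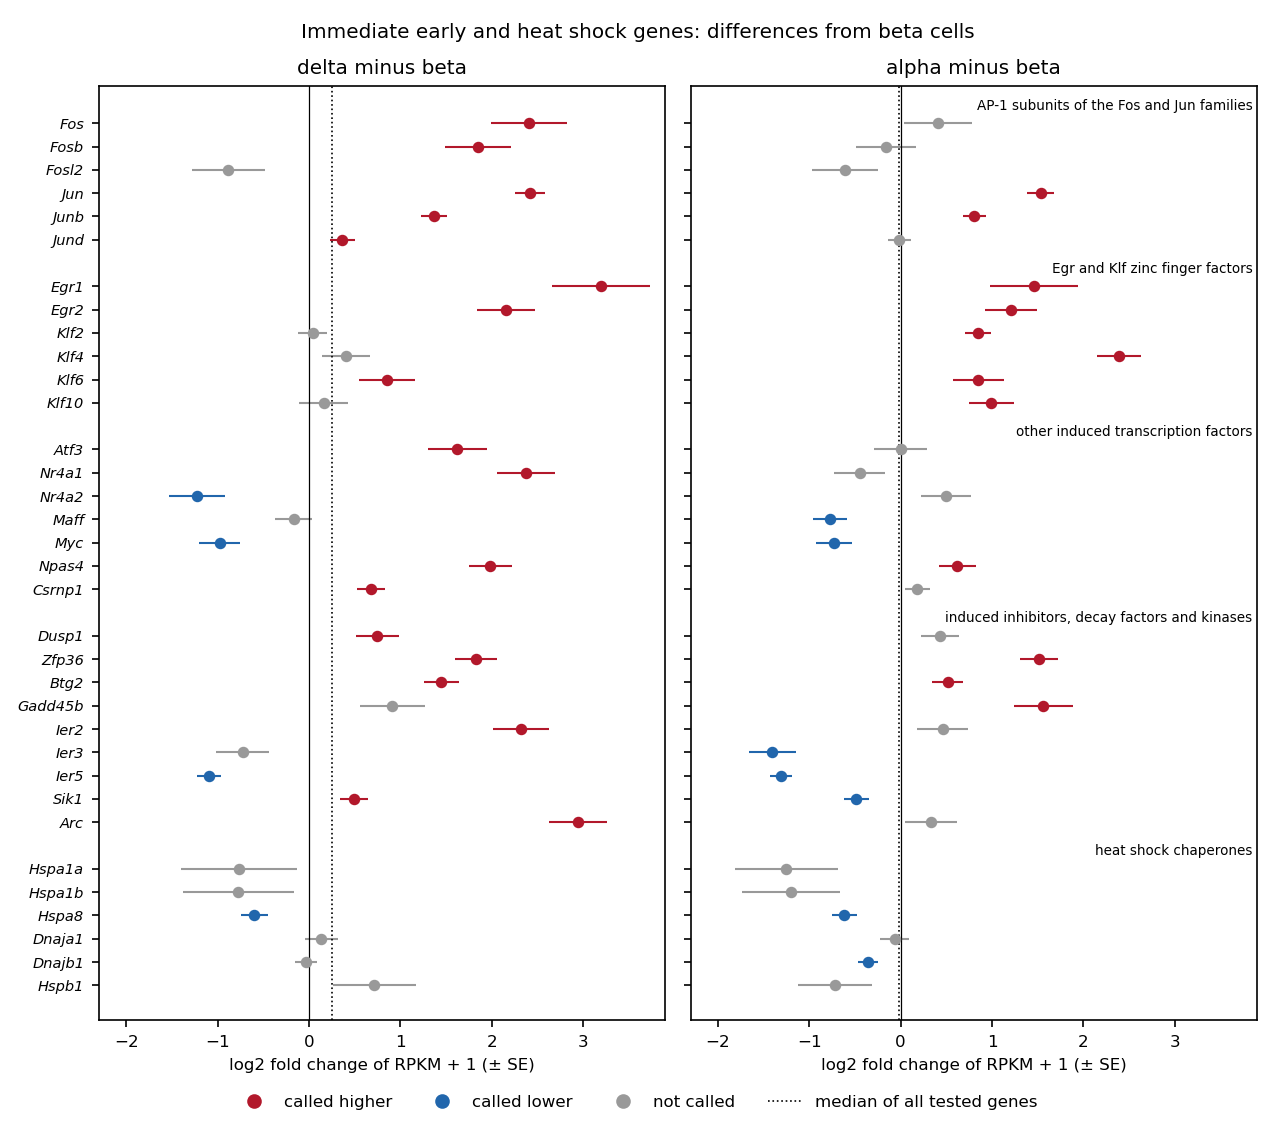
Log2 fold change of RPKM + 1 with its standard error (limma) for the 34 tested genes, delta minus beta on the left and alpha minus beta on the right, grouped by the role of the product. The dotted line is the median of all 12700 tested genes; in delta cells Egr1, Arc, Jun and Fos lie farthest to the right of it, in alpha cells Klf4, and several called genes near the line are not called under other scalings of the libraries.

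The AP-1 factors are pairs of a Fos family and a Jun family protein that bind DNA together. In delta cells, Fos, Fosb, Jun, Junb and Jund rose relative to beta cells, and Fosl2 was not called. Fos (chromosome 12, 85473890 to 85477273, GRCm38 throughout), the most rapidly induced of its family, had 457 and 326 RPKM in delta libraries, 111, 58.8 and 116 RPKM in alpha libraries and 55.1, 154, 53.2, 96.6 and 51.2 RPKM in beta libraries, in order of replicate as in all lists below. The pair of delta libraries stood above every other library, and alpha and beta libraries overlapped. By RPKM, Fos ranked 48 and 78 among all entries in the delta libraries, and between 236 and 1248 in the beta libraries. Its log2 fold change was 2.41 ± 0.42 (SE; adjusted p = 0.00142, limma) against beta cells and 2.0 ± 0.46 (adjusted p = 0.00773) against alpha cells, and the second of these did not pass without delta replicate 1 (1.39, adjusted p = 0.136) or with a term for the numbers in the sample titles (1.40, adjusted p = 0.0783), whose meaning the labels do not give.

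The 250 bases before the start of Fos (RefSeq, GRCm38.p6, chr12:85473640-85473889, plus strand) are printed because they hold the sequence TGACGT, the core of the site that CREB binds, in capitals, 60 bases before the start.
Fos promoter: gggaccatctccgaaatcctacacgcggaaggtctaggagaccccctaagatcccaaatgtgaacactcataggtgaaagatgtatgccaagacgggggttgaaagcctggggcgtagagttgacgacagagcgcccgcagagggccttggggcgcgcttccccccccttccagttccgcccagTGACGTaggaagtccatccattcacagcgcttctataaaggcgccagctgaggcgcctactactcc
The motif TGACGT, searched on both strands of the same window, was present in 6 of the 28 genes with a window in the table (Atf3, Btg2, Dusp1, Fos, Npas4 and Nr4a3) and in 10.7% of the 9454 tested genes with a window. Such a match describes letters only, and a window without one says nothing of CREB.

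Fosb (chromosome 7, 19302696 to 19310051), whose product can replace Fos in the pair, had 21.4 and 8.77 RPKM in delta libraries, 2.89, 1.80 and 3.36 RPKM in alpha libraries and 1.94, 2.86, 2.76, 3.34 and 5.59 RPKM in beta libraries. Both delta libraries were highest, with replicate 1 far above replicate 2. The log2 fold change was 1.85 ± 0.36 (adjusted p = 0.0029, limma) against beta cells and 2.01 ± 0.40 (adjusted p = 0.00385) against alpha cells. Without delta replicate 1 the first was still called, at 1.04, and the second was not, at 1.11 (adjusted p = 0.0589). Fosl2, which encodes Fra-2, a slower member of the family, had 4.39 and 2.65 RPKM in delta libraries, 2.66, 7.16 and 4.04 RPKM in alpha libraries and 4.44, 4.73, 7.86, 11.5 and 9.63 RPKM in beta libraries. Its delta libraries lay below all beta libraries, the reverse of Fos, but the difference of -0.88 ± 0.40 was not called (adjusted p = 0.0935). Under both other scalings of the libraries it was called lower (-1.11 and -1.10).

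Jun (chromosome 4, 95049034 to 95052222) had 228 and 174 RPKM in delta libraries, 125, 101 and 100.04 RPKM in alpha libraries and 30.8, 43.2, 39.3, 31.3 and 37.2 RPKM in beta libraries. The 3 cell types formed an order without overlap, delta above alpha above beta. It had a log2 fold change of 2.42 ± 0.16 in delta cells (adjusted p = 3.51e-06, limma) and 1.53 ± 0.15 in alpha cells (adjusted p = 2.91e-05), both against beta cells, and 0.89 ± 0.18 between delta and alpha cells (adjusted p = 0.00412). The last missed the threshold with median-ratio scaling (adjusted p = 0.0539) and without delta replicate 1 (0.0832).

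Junb, a Jun family member that is itself strongly inducible, had 162 and 155 RPKM in delta libraries, 112, 91.2 and 114 RPKM in alpha libraries and 55.3, 73.9, 59.3, 51.8 and 67.2 RPKM in beta libraries. Its order was that of Jun, with smaller gaps. Against beta cells the log2 fold change was 1.37 ± 0.14 in delta and 0.81 ± 0.13 in alpha cells (adjusted p = 5.8e-05 and 0.000658, limma). Jund, which most resting cells already express, had 82.0 and 93.0 RPKM in delta libraries, 81.6, 69.5 and 56.1 RPKM in alpha libraries and 78.3, 68.6, 67.7, 63.2 and 57.1 RPKM in beta libraries. Here the cell types lay close together. The delta difference from beta cells of 0.37 ± 0.14 passed narrowly (adjusted p = 0.0486), was called under 6 of 19 alternatives and was 0.07 (adjusted p = 0.783) with median-ratio scaling. Of the exonic bases annotated in GENCODE M21, Jund shares 52.6% with Gm11175 on the other strand, Junb 7.52% with Prdx2 and Jun 7.28% with Junos. Reads from the unstranded libraries cannot be told apart there. Among the remaining genes the largest such shares are 19.0% for Hspa1a, with Gm20481, and 10.8% for Dnaja1, with Gm6297, Mir207 and Smu1. The RPKM fit a Jund length of 2878 bases, against 1668 annotated in M21, so its overlap in the annotation behind the RPKM is not known.

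Shares within a family do not depend on how libraries are scaled, and for the Jun genes they differed between the cell types. Of the summed RPKM of Jun, Junb and Jund, Jund made up 17.4% and 22.1% in delta, 20.8% to 26.6% in alpha and 35.4% to 47.6% in beta libraries. Jun made up 48.3% and 41.3% in delta, 37.1% to 39.2% in alpha and 18.7% to 23.6% in beta libraries. The share of Jund was thus highest in beta libraries and that of Jun lowest there, with no overlap. These shares were set up after the values had been seen and were not tested.

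**Figure D2:**
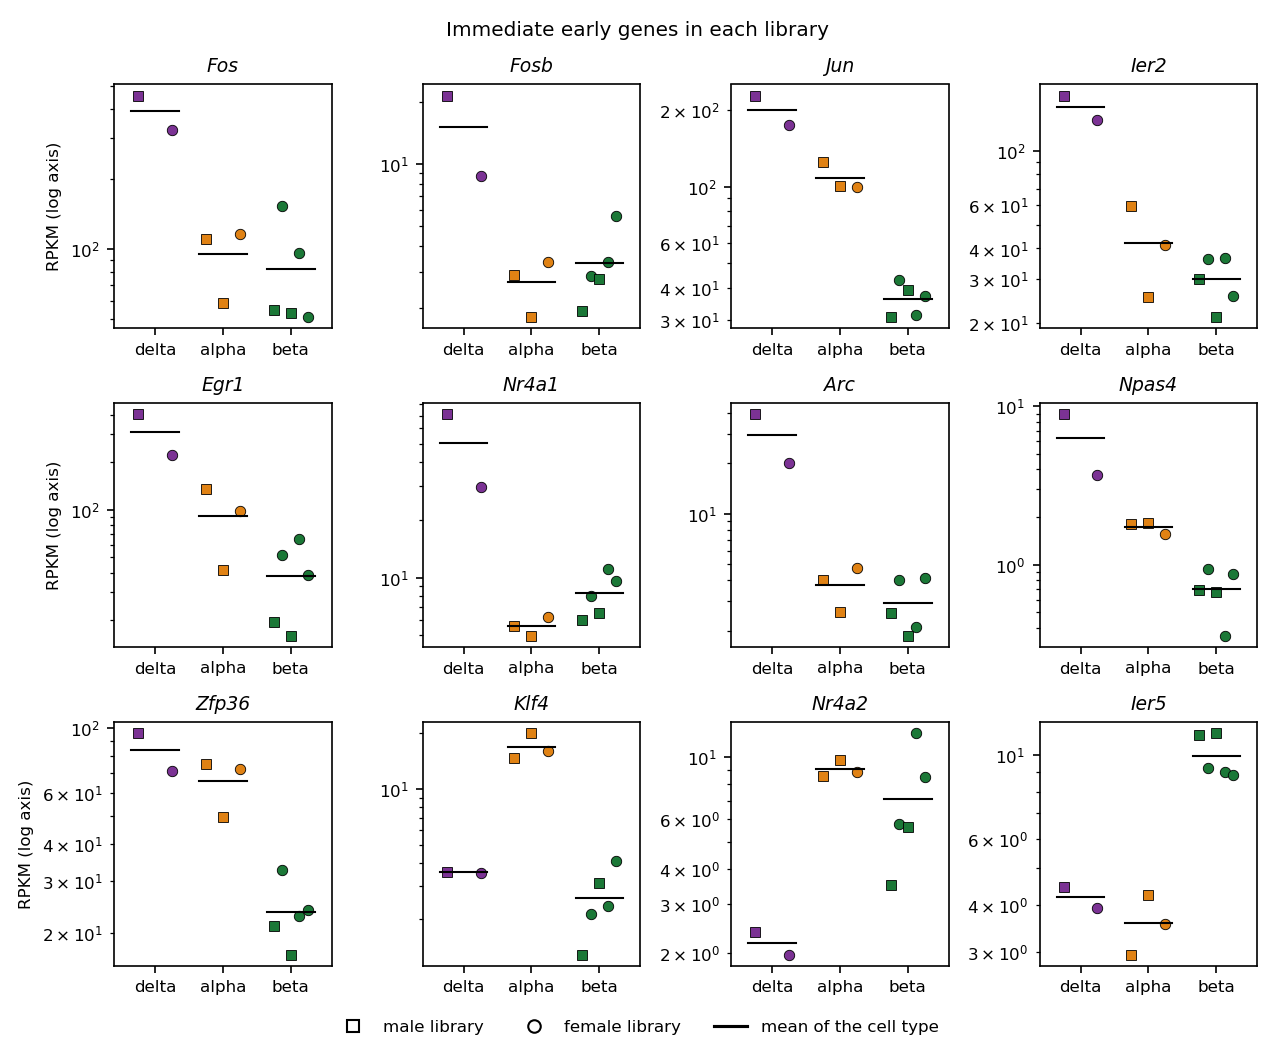
RPKM (log axes, which differ between panels) of 12 immediate early genes in each library, with delta libraries left, alpha libraries in the middle and beta libraries right. Squares are male and circles female libraries, and the line is the mean of the cell type. Both delta points lie above all others for Fos, Fosb, Jun, Ier2, Egr1, Nr4a1, Arc and Npas4, the alpha points lie highest for Klf4, and the delta points lie lowest for Nr4a2.

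The Egr factors are zinc finger proteins that bind GC-rich sites. Egr1 (chromosome 18, 34859823 to 34864984), a widely used readout of ERK signalling, had 402 and 222 RPKM in delta libraries, 135, 41.8 and 97.7 RPKM in alpha libraries and 19.4, 51.8, 15.9, 64.8 and 38.5 RPKM in beta libraries. Delta libraries were highest, and 1 alpha library fell within the beta range. The log2 fold change against beta cells was 3.19 ± 0.54 in delta cells (adjusted p = 0.00123, limma), the largest of the 34 genes, and 1.46 ± 0.48 in alpha cells (adjusted p = 0.029). The alpha difference did not pass when sex was left out (adjusted p = 0.0534), without alpha replicate 1 (0.0949) or 3 (0.082), or without beta replicate 1 (0.0741) or 3 (0.0803). Against alpha cells the delta difference of 1.74 ± 0.59 passed narrowly (adjusted p = 0.0436), was called under 9 of 19 alternatives and was 0.70 without delta replicate 1 (adjusted p = 0.531).

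Egr2 (chromosome 10, 67535475 to 67542188), known from hindbrain and Schwann cell development, had 6.56 and 2.27 RPKM in delta libraries, 1.5, 0.899 and 2.67 RPKM in alpha libraries and 0.0257, 0.124, 0.152, 0.0871 and 0.202 RPKM in beta libraries. The beta values rest on 2 to 16 reads, whereas the delta values rest on 393 and 125 and the alpha values on 45 to 138. Delta and alpha libraries alone brought Egr2 into the test, so its differences from beta cells are given as a description. On the log2 scale they were 2.15 ± 0.32 in delta and 1.21 ± 0.28 in alpha cells (limma). The alpha difference was not called without alpha replicate 3. Egr3, a related factor, did not reach the level needed for a test. It had 2.99 and 0.968 RPKM in delta libraries, 0.135, 0.0148 and 0.329 RPKM in alpha libraries and 0, 0.0204, 0.0422, 0.0107 and 0.0187 RPKM in beta libraries, the last from 0 to 3 reads. Its delta libraries were highest as well.

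The Klf genes encode zinc finger factors of another family. All 4 rose in alpha cells relative to beta cells, and Klf6 also rose in delta cells. Klf4 (chromosome 4, 55527143 to 55532466), one of the factors used to reprogram cells to pluripotency, had 3.58 and 3.56 RPKM in delta libraries, 14.8, 20.0 and 16.1 RPKM in alpha libraries and 1.29, 2.12, 3.15, 2.36 and 4.10 RPKM in beta libraries. The 3 alpha libraries stood clear of the rest, and the delta libraries lay inside the beta range. The difference of Klf4 on the log2 scale was 2.39 ± 0.24 in alpha cells against beta cells (adjusted p = 3.77e-05, limma), and -1.98 ± 0.29 in delta cells against alpha cells (adjusted p = 0.000691), and both were called under all 19 alternatives. In delta cells against beta cells Klf4 was not called as reported, but it was with the title number term (0.77) and with a term for the letter b that some titles carry (0.61).

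Klf2, best known from endothelial cells, had 0.354 and 0.326 RPKM in delta libraries, 1.15, 1.79 and 1.17 RPKM in alpha libraries and 0.210, 0.0676, 0.403, 0.498 and 0.351 RPKM in beta libraries, at 3 to 55 reads a library. It was highest in alpha libraries at a low level, and since these alone brought it into the test, its log2 fold change of 0.84 ± 0.14 against beta cells is given as a description. The endothelial markers are summed by cell type above, and their part in the level of Klf2 was not tested. Klf10, inducible by TGF-beta, had 9.28 and 5.94 RPKM in delta libraries, 11, 15.8 and 16.0 RPKM in alpha libraries and 5.08, 4.51, 7.98, 7.19 and 8.95 RPKM in beta libraries. On the log2 scale it rose by 0.99 ± 0.24 in alpha cells against beta cells (adjusted p = 0.00727), and it was not called in delta cells (0.16 ± 0.27, adjusted p = 0.638). Klf6 had 15.0 and 11.3 RPKM in delta libraries, 11.2, 14.8 and 13.0 RPKM in alpha libraries and 4.70, 4.30, 7.76, 7.69 and 11.4 RPKM in beta libraries. The ranges of Klf6 touched, since beta replicate 5 reached the lower values of both other cell types. Its log2 fold change against beta cells was 0.85 in delta as in alpha cells (SE 0.31 and 0.28, adjusted p = 0.0438 and 0.0272), and the delta value was called under 8 of 19 alternatives.

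Within the summed RPKM of the 4 Klf genes, Klf4 made up 12.7% and 16.8% in delta libraries, 34.8% to 38.7% in alpha libraries and 11.4% to 19.3% in beta libraries. The alpha share stood apart from the others. The window before Klf4 (RefSeq, GRCm38.p6, chr4:55532476-55532725, minus strand) and that before Nr4a1, described next (chr15:101266596-101266845, plus strand), are set side by side because the genes differ in opposite ways between alpha and delta cells, and both hold the Egr site GCGNGGGCG, in capitals on whichever strand it lies.
Klf4 promoter: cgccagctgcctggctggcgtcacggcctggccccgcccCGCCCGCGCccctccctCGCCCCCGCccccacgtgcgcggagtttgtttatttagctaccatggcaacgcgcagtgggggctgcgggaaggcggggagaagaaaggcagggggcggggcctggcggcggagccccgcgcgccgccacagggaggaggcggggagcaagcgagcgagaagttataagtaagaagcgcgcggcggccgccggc
Nr4a1 promoter: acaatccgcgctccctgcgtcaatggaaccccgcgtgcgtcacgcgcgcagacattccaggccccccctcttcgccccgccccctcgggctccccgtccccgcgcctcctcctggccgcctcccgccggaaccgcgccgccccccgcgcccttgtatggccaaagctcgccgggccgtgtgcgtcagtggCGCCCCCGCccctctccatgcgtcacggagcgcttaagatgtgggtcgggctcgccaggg
In the window of Klf4 the matches lie 202 and 185 bases before the start, and in that of Nr4a1 the match lies 51 bases before it. Of the 28 genes with a window, 10 held the Egr site (Btg2, Dnaja1, Fosb, Fosl2, Gadd45b, Klf2, Klf4, Nr4a1, Nr4a2 and Zfp36), and 9.27% of the tested genes with a window did. The CArG box bound by the serum response factor was found in 1 of these windows, that of Zfp36, 48 bases before the start, and in 1.08% of the tested genes with a window. Only 250 bases were searched, and 8 of the 36 genes, Egr1 among them, had no window. A window without a match therefore says nothing of the serum response factor or of the Egr factors.

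The Nr4a genes encode orphan nuclear receptors that act without a known hormone and are regulated by their abundance. Nr4a1 and Nr4a2 differed in opposite directions between delta cells and the other cell types. Nr4a1 (chromosome 15, 101254269 to 101274795), also called Nur77, had 71.0 and 29.5 RPKM in delta libraries, 5.61, 4.98 and 6.21 RPKM in alpha libraries and 6.05, 8.05, 6.57, 11.1 and 9.63 RPKM in beta libraries. Nr4a2 (chromosome 2, 57106830 to 57124003), also called Nurr1, had 2.38 and 1.98 RPKM in delta libraries, 8.54, 9.79 and 8.86 RPKM in alpha libraries and 3.51, 5.77, 5.62, 12.2 and 8.48 RPKM in beta libraries. Delta libraries were thus highest for Nr4a1 and lowest for Nr4a2, with no overlap in either. For Nr4a1 the log2 fold change was 2.37 ± 0.32 against beta cells and 2.82 ± 0.35 against alpha cells (adjusted p = 0.000298 and 0.000236, limma). For Nr4a2 it was -1.22 ± 0.31 and -1.72 ± 0.33 (adjusted p = 0.00937 and 0.0034), and the first did not pass without delta replicate 2 (adjusted p = 0.137). Nr4a3 was at 0.0525 and 0.0572 RPKM in delta, 0.0954, 0.440 and 0.122 RPKM in alpha and 0.0217 to 0.209 RPKM in beta libraries, from 1 to 14 reads, and was not tested.

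As a share of the summed RPKM of the 3 Nr4a genes, Nr4a1 made up 96.7% and 93.6% in delta libraries, 32.7% to 40.9% in alpha libraries and 47.5% to 62.9% in beta libraries. Nr4a1 therefore made up nearly all of the family's RNA in delta libraries and less than that of Nr4a2 in every alpha library.

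**Figure D3:**
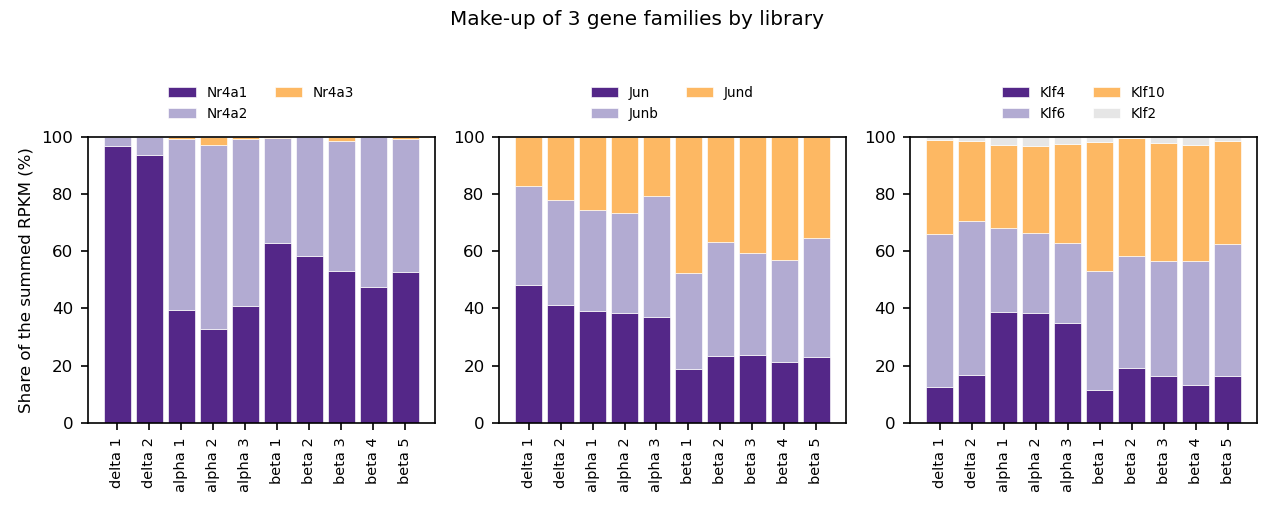
Share of each gene in the summed RPKM (%) of its family in each library, for the Nr4a, Jun and Klf genes, with delta libraries left, then alpha and beta libraries. Nr4a1 fills 96.7% and 93.6% of the delta bars against 47.5% to 62.9% of the beta bars, Jund is largest in beta bars, and Klf4 is largest in alpha bars.

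Among the other induced transcription factors, Npas4 (chromosome 19, 4984355 to 4990316), which neurons transcribe after calcium entry, had 8.91 and 3.70 RPKM in delta libraries, 1.81, 1.83 and 1.56 RPKM in alpha libraries and 0.687, 0.937, 0.670, 0.355 and 0.869 RPKM in beta libraries. The 3 cell types did not overlap. Delta and alpha libraries alone brought Npas4 into the test, so its differences from beta cells are given as a description. On the log2 scale they were 1.99 ± 0.23 in delta and 0.62 ± 0.21 in alpha cells (limma). The alpha difference was called under 12 of 18 alternatives. It was lost when any single alpha library, or beta replicate 1, 3 or 4, was left out. Atf3 (chromosome 1, 191170296 to 191218039), a stress-induced factor of the ATF family, had 35.6 and 13.2 RPKM in delta libraries, 5.06, 7.38 and 7.86 RPKM in alpha libraries and 6.87, 3.87, 7.10, 7.14 and 6.79 RPKM in beta libraries. Delta libraries were highest but differed 2.71-fold from each other. The log2 fold change of Atf3 was 1.62 ± 0.32 against beta cells (adjusted p = 0.0031) and, without delta replicate 1, 0.99 (adjusted p = 0.0621).

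Csrnp1, which encodes a nuclear protein rich in cysteine and serine, had 7.40 and 6.65 RPKM in delta libraries, 4.48, 4.88 and 4.60 RPKM in alpha libraries and 3.22, 3.43, 4.46, 4.09 and 5.03 RPKM in beta libraries, a rise in delta cells of 0.68 ± 0.15 (log2; adjusted p = 0.00537, limma). Delta libraries were above all others, by less than for the genes before. Myc (chromosome 15, 61985391 to 61990374), a driver of growth and division, went the other way. It had 2.06 and 2.27 RPKM in delta libraries, 2.17, 3.38 and 2.68 RPKM in alpha libraries and 4.37, 3.58, 5.56, 6.60 and 6.83 RPKM in beta libraries. Delta and alpha libraries lay below all beta libraries, with log2 fold changes of -0.98 ± 0.22 and -0.73 ± 0.20 (adjusted p = 0.00599 and 0.0123). The delta fall was called under 17 of 19 alternatives, and was -0.97 without delta replicate 1 and -0.99 without delta replicate 2. The alpha fall did not pass without alpha replicate 3 (adjusted p = 0.0822). Maff, a small Maf protein that lacks an activation domain, had 19.4 and 18.1 RPKM in delta libraries, 9.59, 14.7 and 11.7 RPKM in alpha libraries and 17.7, 17.2, 20.9, 28.4 and 24.3 RPKM in beta libraries. It fell by 0.78 ± 0.19 on the log2 scale in alpha cells relative to beta cells (adjusted p = 0.00655), and was not called in delta cells (-0.17 ± 0.21, adjusted p = 0.513).

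The next group holds products that limit or relay the response. Arc (chromosome 15, 74669083 to 74672570), a protein of neuronal dendrites that follows synaptic activity, had 39.2 and 20.2 RPKM in delta libraries, 4.0, 2.58 and 4.70 RPKM in alpha libraries and 2.56, 4.03, 1.86, 2.11 and 4.10 RPKM in beta libraries. Alpha and beta libraries shared 1 range, far below both delta libraries. The log2 fold change was 2.95 ± 0.32 against beta cells and 2.62 ± 0.35 against alpha cells (adjusted p = 7.9e-05 and 0.000393, limma). Ier2 (chromosome 8, 84661331 to 84662852), a nuclear protein of the immediate early response, had 167 and 133 RPKM in delta libraries, 59.5, 25.4 and 41.2 RPKM in alpha libraries and 30.1, 36.2, 21.1, 36.7 and 25.7 RPKM in beta libraries. Both delta libraries of Ier2 were highest, alpha replicates 1 and 3 lay above every beta library, and alpha replicate 2 lay within the beta range. In delta cells the log2 fold change was 2.32 ± 0.31 against beta cells and 1.86 ± 0.34 against alpha cells (adjusted p = 0.000285 and 0.00229, limma). In alpha against beta cells Ier2 was not called as reported (0.46 ± 0.27, adjusted p = 0.185). It was called higher there with the letter b term (0.65, adjusted p = 0.0101) and without alpha replicate 2 (0.74, adjusted p = 0.0392).

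Zfp36 (chromosome 7, 28376784 to 28380253) encodes tristetraprolin, which binds AU-rich elements and speeds the decay of many immediate early RNAs. It had 95.9 and 71.5 RPKM in delta libraries, 75.5, 49.5 and 72.4 RPKM in alpha libraries and 21.0, 32.6, 16.8, 22.8 and 24.0 RPKM in beta libraries. Delta and alpha libraries overlapped, and both stood above all beta libraries, by 1.83 ± 0.23 and 1.51 ± 0.21 (log2; adjusted p = 0.000219 and 0.000283, limma). Btg2 (chromosome 1, 134075170 to 134079120), an antiproliferative protein that recruits a deadenylase to RNAs, had 238 and 164 RPKM in delta libraries, 122, 78.0 and 115 RPKM in alpha libraries and 71.3, 79.3, 67.4, 73.0 and 68.6 RPKM in beta libraries. Delta libraries were highest, and 1 alpha library lay within the narrow beta range. Its log2 fold change against beta cells was 1.45 ± 0.19 in delta and 0.51 ± 0.17 in alpha cells (adjusted p = 0.000279 and 0.0299). The alpha value was called under 15 of 19 alternatives. It did not pass without alpha replicate 1 or 3 or beta replicate 1 or 3 (adjusted p = 0.0599 to 0.208).

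Dusp1, a phosphatase that inactivates MAP kinases, had 39.2 and 33.4 RPKM in delta libraries, 31.1, 21.6 and 34.1 RPKM in alpha libraries and 21.4, 31.3, 19.7, 19.5 and 16.9 RPKM in beta libraries. Its rise in delta cells of 0.75 ± 0.23 (log2; adjusted p = 0.0249, limma) was called under 14 of 19 alternatives, and not with median-ratio scaling (0.46, adjusted p = 0.197). Sik1, a kinase that keeps coactivators of CREB out of the nucleus and is itself induced by cAMP, had 9.87 and 9.33 RPKM in delta libraries, 3.99, 4.51 and 4.39 RPKM in alpha libraries and 4.70, 6.62, 6.84, 7.91 and 7.51 RPKM in beta libraries. The order here was delta above beta above alpha, without overlap. Its log2 fold change against beta cells was 0.49 ± 0.15 in delta cells (adjusted p = 0.0261) and -0.49 ± 0.14 in alpha cells (adjusted p = 0.015). The first was 0.22 with median-ratio scaling (adjusted p = 0.118), and the second did not pass without alpha replicate 3 (adjusted p = 0.11). Between delta and alpha cells the difference was 0.98 ± 0.17 (adjusted p = 0.00177).

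Gadd45b, which responds to growth arrest and DNA damage, had 13.2 and 10.1 RPKM in delta libraries, 13.5, 32.6 and 17.1 RPKM in alpha libraries and 5.60, 3.23, 8.90, 3.71 and 7.73 RPKM in beta libraries. It rose in alpha cells by 1.56 ± 0.32 (log2; adjusted p = 0.00291, limma), and in delta cells the difference of 0.91 ± 0.36 missed the threshold (adjusted p = 0.058) although the libraries did not overlap. It was called with the title number term (1.25, adjusted p = 0.0175), with the letter b term (1.25, adjusted p = 0.000166) and without alpha replicate 1 or 2 or beta replicate 3 or 5 (adjusted p = 0.0237 to 0.0473). Ier5 and Ier3 were highest in beta cells. Ier5, which encodes a nuclear protein of the immediate early response, had 4.46 and 3.92 RPKM in delta libraries, 2.95, 4.24 and 3.56 RPKM in alpha libraries and 11.3, 9.24, 11.5, 9.02 and 8.85 RPKM in beta libraries. Ier3, whose product affects survival of stressed cells, had 14.1 and 11.8 RPKM in delta libraries, 3.96, 9.18 and 10.9 RPKM in alpha libraries and 20.9, 18, 20.9, 26.7 and 26.4 RPKM in beta libraries. All beta libraries stood above all others for both. Ier5 fell in both other cell types, with log2 fold changes of -1.09 ± 0.13 in delta and -1.31 ± 0.12 in alpha cells (adjusted p = 0.000155 and 1.94e-05). Ier3 fell in alpha cells (-1.40 ± 0.26, adjusted p = 0.00168), and in delta cells its difference was -0.73 ± 0.29 (adjusted p = 0.0628), which passed with median-ratio scaling (adjusted p = 0.0107). Most of the immune cell markers summed above were also highest in beta libraries, with 9 of 11 tested called lower in delta cells and 10 of 11 in alpha cells. C1qa was highest in delta libraries, at 57.7 and 73.5 RPKM against 21.1 to 40.2 RPKM in beta libraries. The part of these markers in the lower genes was not tested.

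Of the 6 heat shock chaperones, Hspa8 fell in delta cells and Hspa8 and Dnajb1 fell in alpha cells relative to beta cells, and the others were not called in either, although terms for the numbers or the letter b in the sample titles added calls given below. Hspa8 (chromosome 9, 40800984 to 40810087), the Hsc70 chaperone that cells make without stress, had 70.6 and 83.2 RPKM in delta libraries, 61.8, 76.2 and 82.0 RPKM in alpha libraries and 93.3, 117, 111, 119 and 165 RPKM in beta libraries. All beta libraries were highest, and the log2 fold change was -0.60 ± 0.15 in delta and -0.62 ± 0.13 in alpha cells (adjusted p = 0.00998 and 0.00415, limma), the first of them not called without delta replicate 1 or 2 (adjusted p = 0.0647 and 0.0922). Dnajb1, the Hsp40 partner of inducible Hsp70, had 22.8 and 19.4 RPKM in delta libraries, 16.6, 18.1 and 16.3 RPKM in alpha libraries and 21.1, 17.4, 25.8, 20.2 and 22.5 RPKM in beta libraries. It fell slightly in alpha cells (-0.36 ± 0.11, adjusted p = 0.0193), with 1 alpha library inside the beta range. Dnaja1, another Hsp40 protein, had 8.13 and 7.30 RPKM in delta libraries, 5.96, 6.54 and 7.08 RPKM in alpha libraries and 5.91, 5.18, 7.54, 7.80 and 8.89 RPKM in beta libraries, and was called in none of the comparisons as reported. With the title number term it was called higher in delta than in beta cells (0.41, adjusted p = 0.0209) and than in alpha cells (0.68, adjusted p = 0.0105).

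Hspa1a (chromosome 17, 34969190 to 34972156) and Hspa1b (chromosome 17, 34956436 to 34959238) encode the Hsp70 chaperone that is made on heat shock. Hspa1a had 6.81 and 1.39 RPKM in delta libraries, 0.792, 5.76 and 2.44 RPKM in alpha libraries and 7.17, 1.55, 15.6, 3.66 and 8.37 RPKM in beta libraries. Hspa1b had 6.89 and 0.939 RPKM in delta libraries, 1.0, 6.60 and 1.49 RPKM in alpha libraries and 5.52, 1.44, 15.8, 3.26 and 6.48 RPKM in beta libraries. Libraries of 1 cell type were spread more widely than the cell types were apart. The highest library exceeded the lowest by 7.33-fold for Hspa1b in delta cells, 7.27-fold for Hspa1a in alpha cells and 10.9-fold for Hspa1b in beta cells, each the widest of the 34 genes in that cell type. The differences from beta cells were -0.77 ± 0.63 (Hspa1a) and -0.77 ± 0.60 (Hspa1b) in delta cells and -1.25 ± 0.57 and -1.20 ± 0.54 in alpha cells (log2, limma), and none was called (adjusted p = 0.0873 to 0.331). Both were called lower in alpha than in beta cells with the title number term (-1.74 and -1.73, adjusted p = 0.0223 and 0.0139) and with the letter b term (-1.68 and -1.60, adjusted p = 0.00059 and 0.000676). With the letter b term both were also called higher in delta than in alpha cells (1.51 and 1.40, adjusted p = 0.0079 and 0.0101), and what the letter stands for is not given in the labels.

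These neighbouring genes are near copies, with 58.8% of the 50-base stretches of Hspa1a found in Hspa1b and 62.3% the other way, so the split of reads between them is uncertain and depends on how the authors treated reads that fit both. Summed, they stood at 13.7 and 2.33 RPKM in delta libraries, 1.80, 12.4 and 3.93 RPKM in alpha libraries and 12.7, 2.99, 31.4, 6.92 and 14.9 RPKM in beta libraries. The sum therefore showed the same overlap of the cell types as each gene did. Their windows before the start (RefSeq, GRCm38.p6, chr17:34972157-34972406 and chr17:34959239-34959488, both minus strand) differ at 3 of 250 bases, and the capitals mark GAANNTTC, 2 inverted copies of the unit bound by the heat shock factor. The window of Hspb1 (chr5:135887669-135887918, plus strand) holds that site at 2 places.
Hspa1a promoter: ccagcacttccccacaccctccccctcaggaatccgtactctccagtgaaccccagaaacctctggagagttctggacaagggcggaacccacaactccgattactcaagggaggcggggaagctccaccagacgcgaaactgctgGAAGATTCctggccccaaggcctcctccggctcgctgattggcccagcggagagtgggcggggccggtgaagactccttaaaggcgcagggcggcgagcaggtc
Hspa1b promoter: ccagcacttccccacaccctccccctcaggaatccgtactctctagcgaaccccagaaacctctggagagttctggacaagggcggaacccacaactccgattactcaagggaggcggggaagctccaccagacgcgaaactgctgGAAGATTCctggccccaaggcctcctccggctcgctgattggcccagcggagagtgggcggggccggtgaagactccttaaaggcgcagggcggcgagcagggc
Hspb1 promoter: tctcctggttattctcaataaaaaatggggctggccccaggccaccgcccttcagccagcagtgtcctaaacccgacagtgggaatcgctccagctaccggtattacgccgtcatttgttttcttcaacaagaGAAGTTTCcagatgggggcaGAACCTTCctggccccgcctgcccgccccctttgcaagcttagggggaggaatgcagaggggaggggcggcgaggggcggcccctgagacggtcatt
The site lies 96 bases before the start in Hspa1a and Hspa1b, and 109 and 89 bases before it in Hspb1. GAANNTTC was present in 6 of 28 windows (Dnaja1, Fosl2, Hspa1a, Hspa1b, Hspb1 and Jun) and in 4.95% of the tested genes with a window, and the other arrangement, TTCNNGAA, in none of the 28 and in 5.59%. Each of these motifs reads the same on both strands, and a window without one says nothing of the heat shock factor.

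Hspb1 (chromosome 5, 135887919 to 135889563), the small heat shock protein Hsp27, had 7.07 and 3.94 RPKM in delta libraries, 0.664, 4.59 and 0.952 RPKM in alpha libraries and 4.86, 0.771, 6.17, 1.10 and 2.70 RPKM in beta libraries, from 10 to 129 reads. Libraries overlapped between all cell types. Its difference between delta and alpha cells of 1.44 ± 0.49 (log2; adjusted p = 0.0456, limma) passed, but it was called under 7 of 19 alternatives, and not when sex was left out (adjusted p = 0.156). With the letter b term Hspb1 was also called higher in delta than in beta cells (1.11, adjusted p = 0.00607) and lower in alpha than in beta cells (adjusted p = 0.00559). Within each cell type, the highest value of Hspb1 belonged to a male library. The lowest value of all 10 libraries was male too, in alpha replicate 1 (0.664 RPKM), below the female alpha replicate 3 (0.952 RPKM).

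**Figure D4:**
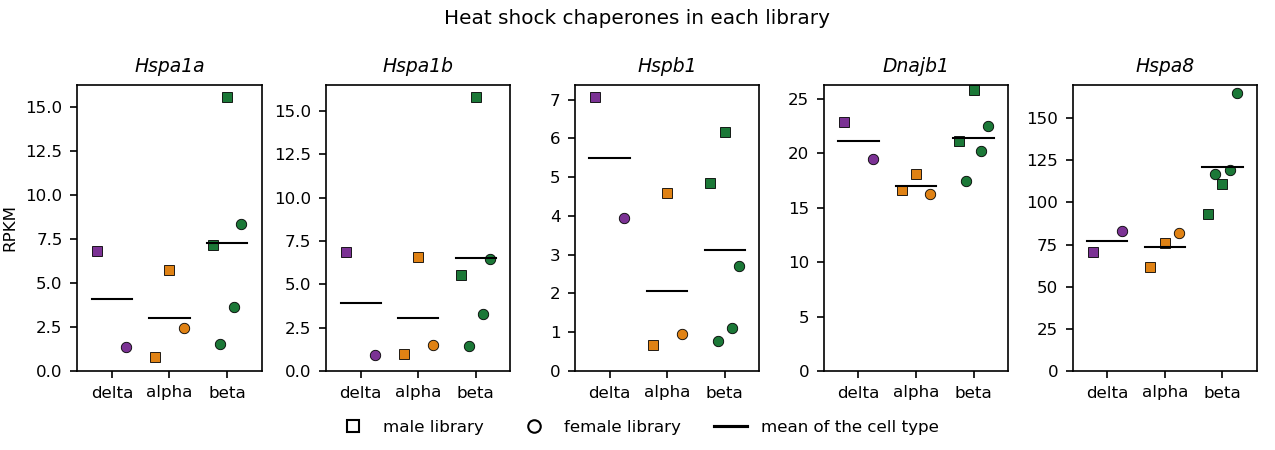
RPKM (linear axes, which differ between panels) of 5 heat shock chaperone genes in each library, with delta libraries left, alpha libraries in the middle and beta libraries right. Squares are male and circles female libraries, and the line is the mean of the cell type. Hspa1a, Hspa1b and Hspb1 spread widely within each cell type, and Hspa8 is highest in the 5 beta libraries.

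Male and female libraries were compared in the same fit. None of the 34 genes was called, where 0.0472% of all tested genes were, and 3 genes had an unadjusted p under 0.05 in limma. These were Hspb1, with a log2 fold change of 1.06 ± 0.35 in male relative to female libraries, Hspa1b with 1.27 ± 0.47 and Hspa8 with -0.31 ± 0.12 (adjusted p = 0.770 each). An interaction of sex with the difference between alpha and beta cells was called for none of them, where 0% of all tested genes were, and 1 gene, Egr2, had an unadjusted p under 0.05 (0.0258). Alpha cells have a single female library and delta cells a single library of each sex, so these tests are weak, and in delta cells sex and library cannot be told apart.

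The delta libraries differed from each other more in these genes than in others. Delta replicate 1, the male one, was above delta replicate 2 for 31 of the 34 genes, and for 54.4% of all genes with reads in both. The ratio was over 1.5 for 12 of the 34 genes and for 3.32% of all genes, with a median of 1.31 against 1.01. Beyond Hspa1b and Hspa1a, with ratios of 7.33 and 4.91, it was highest for Egr2 (2.89), Atf3 (2.71), Fosb (2.44), Npas4 (2.41) and Nr4a1 (2.41). The exceptions were Myc (0.91), Jund (0.88) and Hspa8 (0.85), which were higher in the female library. Both libraries still lay above every beta library for Egr2, Atf3, Fosb, Npas4 and Nr4a1.

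**Figure D5:**
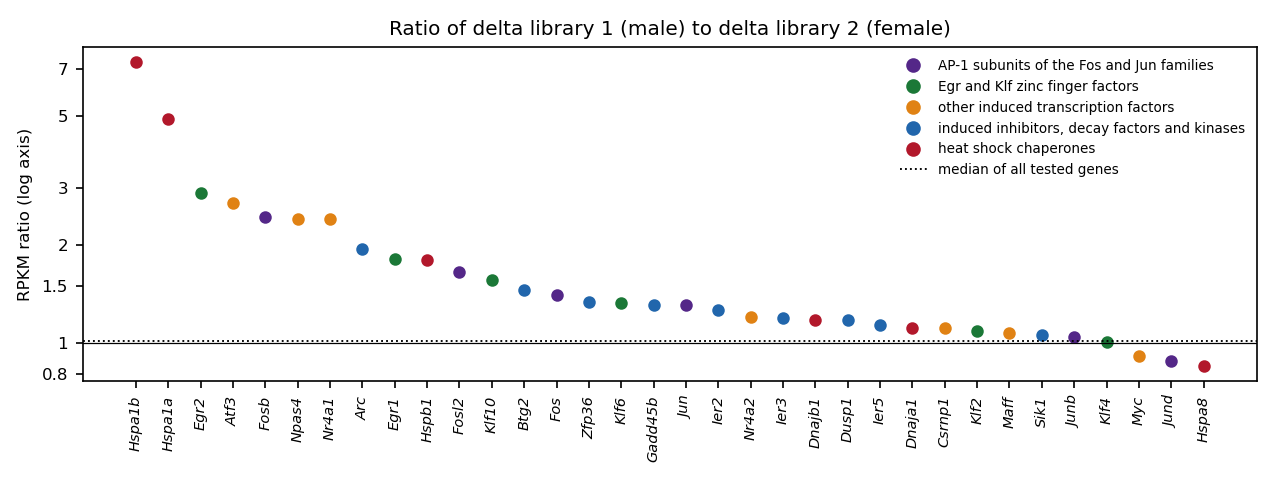
Ratio of the RPKM of delta replicate 1 (male) to delta replicate 2 (female) on a log axis for the 34 tested genes, ordered by the ratio and coloured by the role of the product. The dotted line is the median of all tested genes (1.01); 31 of the 34 points lie above 1, and Hspa1b and Hspa1a lie highest.

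Within the other cell types the libraries also differed more in these genes than in the rest, although less clearly. The highest alpha library exceeded the lowest by a median of 1.54-fold over the 34 genes and 1.23-fold over all genes, and 9 of the 34 genes passed 2-fold, against 6.13% of all genes. In beta cells the medians were 1.92-fold and 1.52-fold, and 15 of the 34 passed 2-fold, against 24.9%. Alpha replicate 2 had the lowest alpha value for Fos, Fosb, Egr1, Egr2, Ier2, Arc and Zfp36, and the highest for Klf4, Gadd45b and Hspa1a. High values of the different genes thus did not fall in the same alpha library.

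Related genes outside the 36 were counted in the same way. Of 36 tested immediate early genes that are not among the 36 described, 13 rose and 8 fell in delta cells relative to beta cells, 8 rose and 11 fell in alpha cells, and 11 rose and 6 fell in delta relative to alpha cells. The shares called higher, 36.1%, 22.2% and 30.6%, stood near the 37.4%, 23.7% and 32.1% of all tested genes. Those called lower were 22.2%, 30.6% and 16.7%, against 13.3%, 30.3% and 5.89%. Their median log2 fold change in delta relative to beta cells was 0.06, below the 0.25 of all tested genes. Cyr61, a secreted matrix protein, averaged 11.1 ± 2.07 RPKM in delta (SD, n = 2), 0.627 ± 0.159 in alpha (n = 3) and 0.917 ± 0.483 RPKM in beta libraries (n = 5). Dusp6, a phosphatase of ERK induced by ERK signalling, averaged 22.4 ± 0.634 RPKM in delta, 2.47 ± 0.535 in alpha and 3.07 ± 0.495 RPKM in beta libraries. Both were highest in delta cells, by 2.66 ± 0.22 and 2.55 ± 0.13 on the log2 scale against beta cells (adjusted p = 1.32e-05 and 6.51e-07, limma). Plk3, a polo-like kinase that responds to stress, was the reverse, with 3.2 ± 0.114 RPKM in delta, 1.41 ± 0.239 in alpha and 55.1 ± 13.5 RPKM in beta libraries (log2 fold change of -3.69 ± 0.19 in delta and -4.46 ± 0.17 in alpha cells). Cebpb, a leucine zipper factor, fell by 1.62 ± 0.13 (log2) in alpha cells relative to beta cells.

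Of 36 other heat shock factors, chaperones and co-chaperones, 6 rose and 7 fell in delta cells and 1 rose and 16 fell in alpha cells relative to beta cells, while 12 were called in delta relative to alpha cells, each higher. The 33.3% called higher in delta than in alpha cells is near the 32.1% of all tested genes. Against beta cells the shares were 16.7% higher and 19.4% lower in delta cells, where all genes gave 37.4% and 13.3%, and 2.78% and 44.4% in alpha cells, where all genes gave 23.7% and 30.3%. The largest falls were of Hspa9, the mitochondrial Hsp70, with 147.9 ± 1.97 RPKM in delta, 81.7 ± 7.34 in alpha and 323 ± 66.7 RPKM in beta libraries, of Hspb6, a small heat shock protein (-1.38 ± 0.13 in delta and -1.68 ± 0.11 in alpha cells), and of Hspa12a, a distant Hsp70 relative (-2.53 ± 0.17 in alpha cells, all log2, limma). Hspa12a averaged 0.586 ± 0.0659 RPKM in alpha libraries. Delta and beta libraries alone brought it into the test, so its fall in alpha cells is given as a description. It is among the 16 genes called lower in alpha than in beta cells and the 12 called higher in delta than in alpha cells. Bag3, a co-chaperone that is induced by heat, averaged 41.4 ± 0.308 RPKM in delta, 14.5 ± 2.46 in alpha and 23.8 ± 3.64 RPKM in beta libraries. It was 1.46 ± 0.18 higher on the log2 scale in delta than in alpha cells (adjusted p = 0.000241).

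Of 40 kinases and factors upstream of immediate early genes, 22 rose and 1 fell in delta cells and 10 rose and 5 fell in alpha cells relative to beta cells, and 8 were called in delta relative to alpha cells, each higher. The share called higher in delta than in beta cells was 55%, against 37.4% of all tested genes. It was 25% in alpha relative to beta cells, against 23.7%, and 20% in delta relative to alpha cells, against 32.1%. Their median log2 fold change in delta relative to beta cells was 0.46, against 0.25 for all tested genes. Camk4, a calcium-dependent kinase that can activate CREB, averaged 1.83 ± 0.0920 RPKM in delta, 0.389 ± 0.121 in alpha and 0.0930 ± 0.0537 RPKM in beta libraries. Delta libraries alone brought Camk4 into the test, so its log2 rise of 1.38 ± 0.10 against beta cells is given as a description. It is among the 22 and the 8 genes called higher in delta cells. Mkl2, a coactivator of the serum response factor, averaged 12.6 ± 0.950 RPKM in delta, 8.55 ± 1.14 in alpha and 4.02 ± 0.899 RPKM in beta libraries. Ppp3ca, the catalytic subunit of the calcium-activated phosphatase calcineurin, averaged 27.5 ± 2.5 RPKM in delta, 18.8 ± 2.38 in alpha and 10.1 ± 3.10 RPKM in beta libraries. The means of both were highest in delta and lowest in beta cells, with rises in delta relative to beta cells of 1.47 ± 0.18 and 1.41 ± 0.26 (adjusted p = 0.000169 and 0.00198). Rps6ka1, a ribosomal S6 kinase activated by ERK, was 1.17 ± 0.12 higher in delta than in alpha cells on the log2 scale (adjusted p = 7.46e-05).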

How the data were processed

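The 10 libraries are columns of 1 table that the authors deposited, in RPKM (reads scaled to gene length and library size). The submitters' processing notes name STAR 2.4, featureCounts, edgeR 3.12.0 and GRCm38.p3; the annotation and the handling of reads that fit several genes were not given in the sources used here. Per the labels' protocols, an unstranded TruSeq kit was used. RPKM are shares of a library, so abundant hormone transcripts (9.81% to 31.8% of reads) lower the rest.

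Library totals and reads were recovered from the smallest steps of the values, with 100% of values whole within 0.05 read, which the fitted gene lengths help to ensure. They served for depth only. The test was limma 3.58.1 (R 4.3.3) on log2(RPKM + 1), a scale that understates changes of low genes, fitted jointly to every library for cell type and sex, with a variance that depends on the mean. There were 6 residual degrees of freedom and, as a median, 3.16 prior ones. Genes reaching 1 RPKM in 2 or more libraries were tested (12700), adjusted by the Benjamini-Hochberg method, and called under 0.05. The fit was tested on simulated data. Alternatives changed the pseudocount (0.1), the filter (none, or 5 RPKM), the scaling, the terms, the trend and the libraries kept. Coordinates are those of GENCODE M21 on GRCm38, 1-based, matched by symbol for all 36 genes, and promoter windows came from a RefSeq table (28 of 36 genes).

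The genes and lists were chosen with earlier results of these data known. Beyond the 36 genes, the text could name up to 3 called genes with the largest fold change per list and comparison, and marker genes.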

Additional observations from a re-analysis of the deposited data

Results flagged for a closer look

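Atf3 had 3.87 RPKM in beta replicate 2, below the other beta libraries, which lay at 6.79 to 7.14 RPKM. The gap exceeded the 95% critical value of Dixon's test for 5 libraries (0.71) on the log2 scale. The test flags about 1 in 20 groups by chance, it was applied to the beta libraries of 34 genes and flagged this value alone, and it flagged 5.35% of 12687 genes over the whole table.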

How the results depend on the processing

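Of 19 alternatives run (9 other settings and 10 that each left out 1 library), all called 11 of the 22 genes called in delta against beta cells, 8 of the 19 in alpha against beta cells and 6 of the 17 in delta against alpha cells. Under a filter of 5 RPKM Egr2, Npas4 and Klf2 were not tested, and under the other 18 a further 2 (Egr2 and Npas4), 1 (Klf2) and 1 (Npas4) were called in each. No called gene changed sign. With median-ratio scaling, 8 genes were called lower in the delta to beta comparison and 8 higher in the delta to alpha comparison, where 9 were higher without hormone reads. Over all genes, calls that were higher made up 49.7% under median-ratio scaling and 73.7% as reported for delta against beta cells, and 57.8% and 84.5% for delta against alpha cells. Leaving out each replicate gave 15 to 23 calls for delta against beta cells (13 to 18 higher, 1 to 5 lower), 9 to 21 for alpha against beta cells (6 to 13 higher, 3 to 8 lower) and 8 to 18 for delta against alpha cells (6 to 14 higher, 2 to 4 lower). Of 18 differences between cell types called under no setting, 11 changed sign under 1 or more. Of those called under some alternative but not as reported, the ones that changed sign were, in delta against beta cells, Dnaja1 (-0.12 with median-ratio scaling, -0.067 without hormone reads), Maff (0.096 with a title number term) and Dnajb1 (0.13 with that term, 0.055 with a letter b term, -0.080 to 0.025 when replicates were left out, positive without beta replicate 3 or 5). In delta against alpha cells these were Klf6 (-0.28 and -0.30 under the other scalings, and -0.28 to 0.25 when replicates were left out), Dnaja1 (-0.070 and -0.083), Hspa1b (-0.15 to 0.88 when replicates were left out) and Hspa1a (-0.16 to 1.01). Where not shown by the construction of the alternative, the cause was not tested. No paired analysis was possible because cell types share no title numbers and nothing in the labels links a library to its islets. A term that splits the title numbers into 16 to 21 and 8 to 13 ended 6 calls (Jund and Dusp1 against beta cells, and Fos, Junb, Egr1 and Klf2 between delta and alpha cells) and added 11, and a term for the letter b ended 2 (Jund and, between delta and alpha cells, Egr1) and added 13. Genes with under 20 reads in a library, such as Egr2 in beta cells, are limited by depth.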

Other observations

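Sample titles carry numbers whose meaning the labels do not give, and some beta titles precede a delta or alpha title of the same sex by 1. These values were set side by side after they had been seen, and nothing in the labels says that such libraries share islets. Hspa1a and Hspa1b together stood at 13.7 RPKM in delta replicate 1 (title number 17) and 12.7 RPKM in beta replicate 1 (16), and at 2.33 RPKM in delta replicate 2 (21) and 2.99 RPKM in beta replicate 2 (20). They stood at 12.4 RPKM in alpha replicate 2 (9, with the letter b) and 31.4 RPKM in beta replicate 3 (8, with the letter b), and at 3.93 RPKM in alpha replicate 3 (13, with the letter b) and 14.9 RPKM in beta replicate 5 (12, with the letter b). Hspb1 stood at 7.07 and 4.86 RPKM, 3.94 and 0.771 RPKM, 4.59 and 6.17 RPKM, and 0.952 and 2.70 RPKM in the same 4 pairs, with the delta or alpha library before the beta library. Titles that differ in the letter b also follow each other by 1. Hspa1a and Hspa1b together stood at 1.80 RPKM in alpha replicate 1 (9) and 31.4 RPKM in beta replicate 3. They stood at 3.93 RPKM in alpha replicate 3 and 6.92 RPKM in beta replicate 4 (12). Hspb1 stood at 0.664 and 6.17 RPKM, and at 0.952 and 1.10 RPKM, in these pairs.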
